A study of Mus musculus with 336 samples.

Results

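Fibroblasts from the skin of Bmal1-/- mice (KO) were followed for 3 days after a synchronizing pulse, and the 8 libraries of the last day (CT48 to CT69) are set here against the 8 of the first day (CT00 to CT21). Members were chosen by genotype and time label alone, which gave 16 of the 120 columns of FPKM (expression scaled for transcript length and the number of mapped fragments) in the series. The cells had a C57BL/6 background. Cells were grown to confluence in medium with serum, given 100 nM dexamethasone for 15 min, washed and kept in HEPES-buffered medium with serum under conditions labelled DD, and harvest began 48 h later at intervals of 3 h. The groups used are KO day 3, KO day 2 and KO day 1, and the same days of WT skin fibroblasts (C57BL/6, same treatment), with 8 time points each. All groups therefore share the glucocorticoid pulse. The label Bmal1-/- names neither a Cre driver nor the deleted exons, and the number of animals or separate cultures behind the cells is not stated. The design states n = 3 per time point but each has 1 FPKM value. The p-values of day 3 against day 1 therefore measure the spread of the differences between the days across the 8 phase pairs. That spread may be technical and may also hold changes within the days.

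BMAL1, listed under its gene symbol Arntl, pairs with CLOCK and binds E-boxes in the promoters of its targets, and without it the molecular clock loses its positive arm. A confluent fibroblast culture is a slowly changing system of its own. Contact between fibroblasts restrains division, and the cells go on secreting collagen and other matrix around themselves. Pairing each time point of day 3 with that of the same circadian phase on day 1 holds the phase equal and leaves the change over 48 h. Values were compared as log2(FPKM + 1), so a difference understates the change of genes near or below 1 FPKM.

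In the KO libraries between 13734 and 14141 genes reached 1 FPKM on day 3, and between 13709 and 14260 on day 1. Rows of short noncoding RNAs took 38.7 to 40.6% of all FPKM on day 3 and 38.4 to 40.5% on day 1. The share of mitochondrially encoded genes was 9.17 to 10.6% on day 3 and 8.18 to 9.70% on day 1, higher on day 3 in 8 of 8 phase pairs. Total FPKM was 815362 to 867953 on day 3 and 803140 to 830900 on day 1, also higher in 8 of 8 pairs. The part of these measures in the results was not tested. The 10 most abundant genes held 37.6 ± 0.66% of all FPKM on day 3 and 37.0 ± 0.58% on day 1 (SD, n = 8 each), a difference of 0.558 percentage points (exact paired permutation test, two-sided, p = 0.125, higher in 5 of 8 pairs). Depth is unknown because the files hold no counts. The libraries of KO and of WT were sequenced in different pools, so genotype and pool cannot be told apart in level, whereas both days of a genotype lie in the same pool.

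Fibroblast identity was checked with 11 marker genes, all of which averaged at least 1 FPKM. The matrix proteoglycan Dcn stood at 4264 to 4636 FPKM on day 3 and 2731 to 3461 on day 1. Of 8 markers tested 4 were higher on day 3 (Dcn, Fbln1, Pdgfrb and Lum) and 4 lower, namely Vim (-0.29), S100a4 (-0.15), Pdgfra (-0.12) and Thy1 (-0.09), with 2 lower when any of phases CT00 to CT15 was left out. The collagen genes Col1a1, Col1a2 and Col3a1 had medians of 3552, 2109 and 10331 FPKM, but were listed at exactly 0 with a failed status in 4, 1 and 5 of the 24 KO libraries, so they were not tested. Of keratinocyte markers 2 of 9 reached 1 FPKM, with Krt5, Krt14, Krt1, Epcam and Lor below 0.1 FPKM, and the summed list ran from 2.92 to 3.76 FPKM on day 3 and 3.03 to 4.22 on day 1. Macrophage markers summed to 9.14 to 12.7 FPKM on day 3 and 6.46 to 9.63 on day 1. Most of that sum was Cd14, a co-receptor for bacterial endotoxin that fibroblasts can also express, at 8.72 ± 0.63 FPKM on day 3 and 6.36 ± 0.99 on day 1 (SD, n = 8 each), while the defining genes Adgre1, Ptprc, Itgam, C1qa, C1qb and C1qc were below 0.1 FPKM. Of endothelial markers 1 of 7 reached 1 FPKM, the angiopoietin receptor gene Tek, at 1.91 ± 0.71 FPKM on day 3 and 1.01 ± 0.14 on day 1 (SD, n = 8 each), with Cdh5, Vwf, Emcn and Cldn5 below 0.1 and the sum at 2.18 to 4.29 FPKM on day 3 and 1.92 to 2.30 on day 1. Melanocyte and Schwann cell markers, of which 1 of 8 reached 1 FPKM and Dct, Tyr, Mlana and Sox10 were below 0.1, summed to 2.40 to 5.12 FPKM on day 3 and 2.60 to 3.67 on day 1. No adipocyte marker of 5 reached 1 FPKM, and their sum was at most 0.317 FPKM on day 3 and 0.290 on day 1. In a bulk culture fewer cells of a kind and less RNA per cell cannot be told apart.

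Arntl itself showed no difference between the days that passed the test. It had 5.67, 6.77 and 7.59 FPKM (lowest, median and highest of 8) on day 3 and 6.00, 6.58 and 7.51 FPKM on day 1, with overlapping ranges and a difference of -0.00 ± 0.06 on the log2 scale (limma, adjusted p = 0.982). The gene spans chromosome 7, 113207465 to 113314126 (GRCm38, plus strand). Reads from exons outside a deletion still count toward the gene, so this level is no check of the genotype.

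Of 14683 genes tested, 1788 were higher on day 3 (12.2%) and 1455 lower (9.91%) at an adjusted p below 0.05. The changes were mostly small. A log2 difference of at least 0.5 was reached by 196 of the higher and 231 of the lower genes, and one of at least 1 by 25 and 23. The median over all genes tested was 0.00, against which the medians of the gene lists below are read.

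The highest named difference in a protein-coding gene was that of Sema3b, a secreted semaphorin. It had 10.3, 15.98 and 19.6 FPKM on day 3 and 1.28, 3.26 and 5.90 FPKM on day 1, without overlap, a difference of 2.07 ± 0.13 (SE, adjusted p = 2.14e-05). Apoe, the apolipoprotein that carries cholesterol out of cells (chromosome 7, 19696109 to 19699188, minus strand), had 56.3, 74.9 and 89.2 FPKM on day 3 and 11.02, 20.01 and 27.8 on day 1. Every day 3 library lay above every day 1 library, with a 3.77-fold ratio of means and a difference of 1.90 ± 0.07 (adjusted p = 2.06e-06). Smoc2, a matricellular protein of basement membranes, had 61.4, 73.1 and 85.1 FPKM on day 3 and 25.8, 31.7 and 38.8 on day 1 (1.17 ± 0.03, adjusted p = 2.91e-07). It differed by 0.60 between day 2 and day 1 and by 0.58 between day 3 and day 2, and the climb is drawn in the plot of FPKM at each time point.

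Secreted or membrane proteins made up much of the rest of the 15 highest. Rarres2, the adipokine chemerin, averaged 10.9 ± 1.3 FPKM on day 3 and 3.27 ± 1.4 on day 1. The membrane dipeptidase Dpep1 averaged 42.5 ± 7.8 FPKM on day 3 and 17.5 ± 4.2 on day 1, and Fxyd1, a regulator of the sodium pump, 83.2 ± 13 on day 3 and 35.3 ± 8.3 on day 1 (SD, n = 8 each). The list also held Gng13, a G protein gamma subunit (1.70), Lgi2 (1.28), Pamr1 (1.24), the troponin gene Tnnt2 (1.14), Npy1r, a receptor of neuropeptide Y (1.12), and the glutathione transferase Gsta3 (1.12), each without overlap between the days. All 15 were chosen as higher in 8 of 8 pairs and then by size, a choice that favours a lack of overlap. Such a choice also favours a KO change above that of WT. A test of that difference passed for all of them but Rarres2, Lgi2 and Pamr1, which rose in WT by 1.26, 1.04 and 1.54. The first of the 15 by size was the row of the miRNA hairpin Mir667, which was listed at 0 in 7 of 16 libraries. Its values ran from 9.36 to 58.8 FPKM on day 3, and on day 1 were 23.7 FPKM at CT03 and 0 in the other 7 libraries. The libraries were made from poly(A) RNA and read for 50 bases, and a hairpin row in them rests on few reads.

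**Figure D1:**
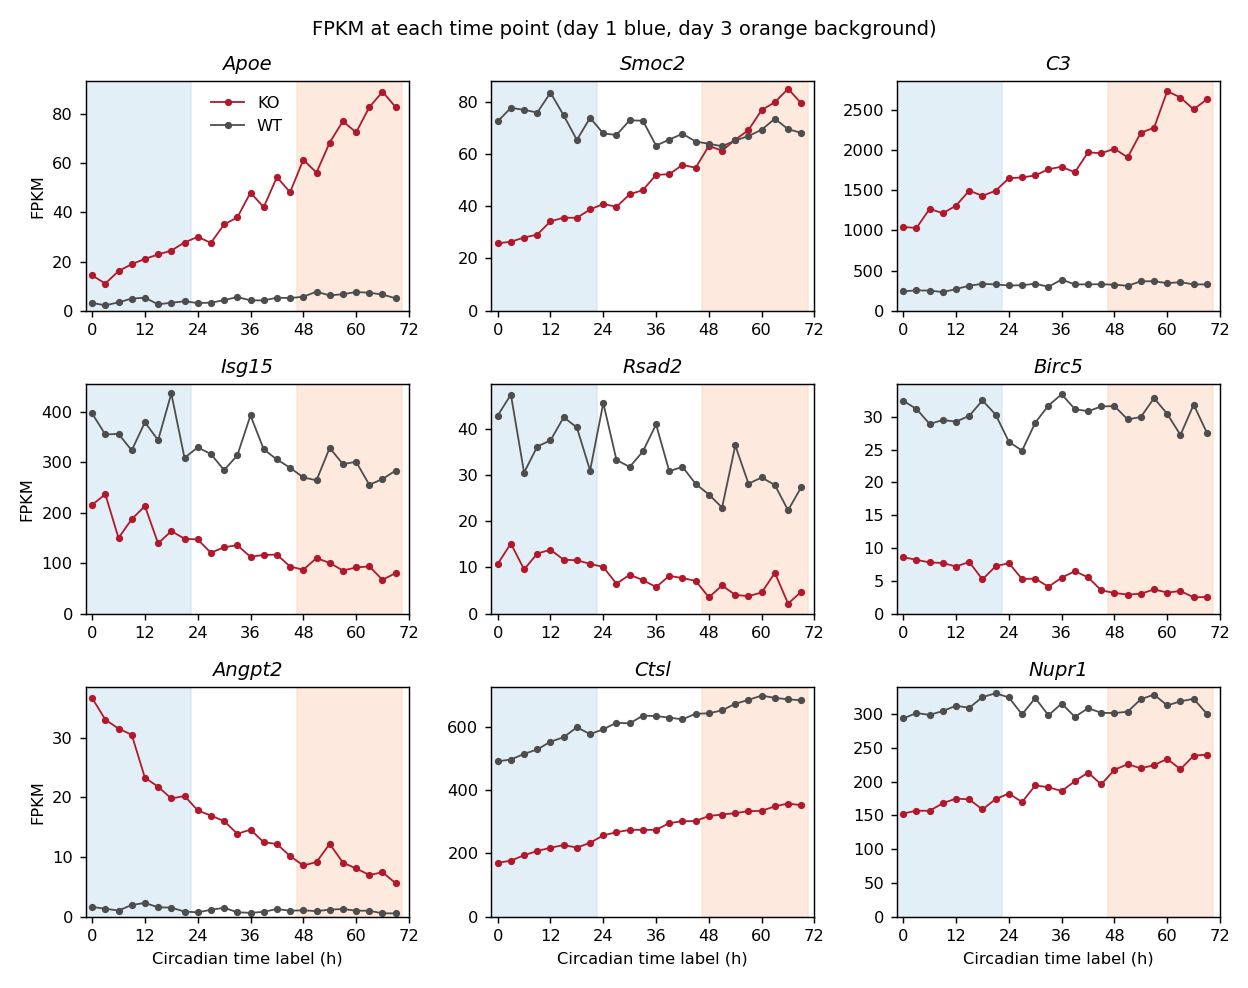
FPKM of 9 genes at each of 24 time points (circadian time label in h) in KO (red) and WT (grey) fibroblasts, 1 library per point, with day 1 on blue and day 3 on orange. In KO cells Apoe, Smoc2, C3, Ctsl and Nupr1 climb over all 3 days and Isg15, Rsad2, Birc5 and Angpt2 decline, with no overlap between day 3 and day 1.

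At the other end stood Angpt2, the angiopoietin that antagonizes the TIE2 receptor. It had 5.63, 8.35 and 12.2 FPKM on day 3 and 19.8, 26.9 and 36.7 FPKM on day 1, without overlap (-1.57 ± 0.08, adjusted p = 6.34e-06), and the ratio of the day 1 to the day 3 mean was 3.22. The chemokine Cxcl15 had 17.9, 22.9 and 27.3 FPKM on day 3 and 45.5, 56.7 and 79.0 on day 1 (-1.34 ± 0.05, adjusted p = 3.12e-06). Tes, a focal adhesion protein, averaged 23.1 ± 3.0 FPKM on day 3 and 44.3 ± 5.3 on day 1 (SD, n = 8 each). Of the 15 lowest, Rsad2, Isg15, Mx2, Ifit1 and Oasl2 belong to the interferon list below, Ifit3b, Cmpk2 and Zbp1 are also known as interferon-induced, and Birc5 and Ube2c are genes of mitosis. The chemokine Ccl5 was among the 15 as well.

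Interferon response genes fell together. These genes are switched on through interferon-stimulated response elements (ISRE) in their promoters, and their products block viral replication. Of 25 tested, 22 were lower on day 3 and 1 was higher, with a median difference of -0.74. Isg15, a ubiquitin-like modifier (chromosome 4, 156199424 to 156200818, minus strand), had 67.1, 89.2 and 110 FPKM on day 3 and 139, 175 and 236 on day 1, with no overlap (-1.0 ± 0.10, adjusted p = 0.000152). Rsad2, which encodes the antiviral enzyme viperin, had 2.19, 4.32 and 8.82 FPKM on day 3 and 9.57, 11.6 and 15.2 on day 1 (-1.24 ± 0.15, adjusted p = 0.000532). Ifit1, which binds foreign RNA, had 31.0, 39.4 and 50.4 FPKM on day 3 and 63.3, 69.5 and 96.4 on day 1 (-0.93 ± 0.06). For all 3 genes the lowest day 1 library lay above the highest day 3 library.

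The regulators of the response were lower as well. Irf7, the factor that drives type I interferon genes, averaged 39 ± 4.5 FPKM on day 3 and 71.8 ± 10 on day 1, and Usp18, which removes ISG15 from proteins, 22.7 ± 3.2 on day 3 and 39.3 ± 6.2 on day 1 (SD, n = 8 each). Stat2 (-0.37) and Irf9 (-0.35) fell too. Irf1 (-0.11) and Ifit2 (0.06) did not pass. The exception was Ifi27, a mitochondrial interferon-induced gene, at 260, 297 and 317 FPKM on day 3 and 160, 189 and 206 on day 1 (0.66 ± 0.04, adjusted p = 9.32e-06). Mx2, Ifit3b and Oas1a have near-identical neighbours among which reads can be split, so their values are uncertain.

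Promoters of 3 of these genes are shown because they carry the ISRE core in different arrangements. The windows run from 250 bases before to 50 after the gene's start (RefSeq, GRCm38.p6), written along the gene's strand, with matches in capitals to TTTC, any 2 bases and TTTC again, on either strand. They cover chr4:156200769-156201068 (minus strand) for Isg15, chr19:34640639-34640938 (plus strand) for Ifit1 and chr12:26456403-26456702 (minus strand) for Rsad2.
Isg15: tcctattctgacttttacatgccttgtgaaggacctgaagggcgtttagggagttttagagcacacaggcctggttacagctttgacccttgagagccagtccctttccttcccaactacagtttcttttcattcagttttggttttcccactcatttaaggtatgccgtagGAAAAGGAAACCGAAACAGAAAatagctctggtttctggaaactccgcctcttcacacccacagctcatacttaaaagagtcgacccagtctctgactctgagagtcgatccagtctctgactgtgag
Ifit1: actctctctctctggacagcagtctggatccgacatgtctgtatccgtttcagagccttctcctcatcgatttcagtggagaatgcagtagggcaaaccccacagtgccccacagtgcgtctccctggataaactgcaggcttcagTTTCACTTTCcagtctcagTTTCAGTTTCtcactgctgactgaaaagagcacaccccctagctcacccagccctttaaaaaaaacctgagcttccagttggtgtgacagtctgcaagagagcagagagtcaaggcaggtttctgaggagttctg
Rsad2: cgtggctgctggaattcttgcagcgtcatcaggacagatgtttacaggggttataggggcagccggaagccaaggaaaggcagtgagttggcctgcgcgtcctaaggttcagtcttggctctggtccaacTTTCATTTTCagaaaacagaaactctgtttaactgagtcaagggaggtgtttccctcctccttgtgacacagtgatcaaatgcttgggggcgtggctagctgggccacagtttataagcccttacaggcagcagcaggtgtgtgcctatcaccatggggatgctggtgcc
In Isg15 3 overlapping matches fuse into a run that begins 78 bases before the start, in Ifit1 2 separate matches begin 104 bases before it, and in Rsad2 a single match begins 120 bases before it. A window was at hand for 20 of the 25 tested genes of the list and 13 of these held the motif, against 3.99% of all 27025 gene symbols with a window. A match is a description of the letters and no record of binding.

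Genes of cell division were also lower. Of 29 tested 18 were lower, 1 was higher, and the median difference was -0.53. Birc5, which encodes the mitotic protein survivin (chromosome 11, 117849251 to 117855743, plus strand), had 2.49, 3.10 and 3.70 FPKM on day 3 and 5.23, 7.76 and 8.61 on day 1, without overlap (-1.06 ± 0.06, adjusted p = 8.28e-06). Mki67, the Ki-67 proliferation marker, had 2.28, 2.72 and 3.17 FPKM on day 3 and 4.57, 5.52 and 8.09 on day 1 (-0.85 ± 0.06, adjusted p = 4.02e-05), again without overlap. Top2a, the topoisomerase that untangles replicated chromosomes, averaged 10.2 ± 2.0 FPKM on day 3 and 18.5 ± 2.7 on day 1, and the cyclin Ccna2 3.50 ± 0.32 on day 3 and 6.96 ± 1.6 on day 1 (SD, n = 8 each). Genes of DNA replication were mixed. The helicase subunit Mcm5 fell by 0.64 on the log2 scale and Pcna, the sliding clamp of DNA polymerase, by 0.14, while the subunits Mcm2 (-0.14) and Mcm4 (-0.10) did not pass. E2f1, a factor of S phase entry, was higher, at 13.5 ± 0.50 FPKM on day 3 and 11.4 ± 0.66 on day 1. With a filter at a mean of 5 FPKM, which leaves fewer of these low genes to test, 9 were called lower.

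The cell cycle motif CHR, searched as TTTGAA on both strands, was in the promoter windows of 12 of 23 tested cell division genes with a window, against 20.2% of all symbols. Of 21 immediate early genes 8 were lower and 4 higher, with a median of -0.13. Fosl1, an AP-1 subunit, averaged 3.88 ± 0.61 FPKM on day 3 and 7.11 ± 0.83 on day 1, and Egr1, a factor induced by serum within minutes, 24.3 ± 1.7 on day 3 and 38.7 ± 5.7 on day 1. Klf2, a quiescence-linked factor, was higher at 8.62, 9.80 and 12.1 FPKM on day 3 and 5.49, 6.82 and 7.56 on day 1 (0.53 ± 0.04, adjusted p = 4.08e-05). Of 18 p53 targets and CDK inhibitors 7 were lower and 2 higher. Ccng1, a p53 target, had 129, 154 and 170 FPKM on day 3 and 180, 204 and 211 on day 1 (-0.39 ± 0.04). The apoptosis gene Bbc3 fell by 0.43 on the log2 scale, while the CDK inhibitors Cdkn2a (0.09) and Cdkn2b (-0.04) did not pass.

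Contractile genes had 7 of 9 tested members lower and none higher, with a median of -0.21. Acta2, the smooth muscle actin that marks myofibroblasts, had 102, 109 and 130 FPKM on day 3 and 155, 162 and 177 on day 1, with a gap between the days (-0.55 ± 0.05, adjusted p = 0.000147). The tropomyosin Tpm1 averaged 262 ± 11 FPKM on day 3 and 303 ± 17 on day 1 (SD, n = 8 each), with overlap between the days. The actin-binding genes Cnn1 (-0.63) and Tagln (-0.29) fell, and Cnn2 (-0.07) and Myl9 (-0.14) did not pass.

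Lysosome and autophagy genes rose as a group. Their products break down proteins, glycans and lipids in acid vesicles. Of 29 tested 20 were higher and none lower, with a median of 0.22. Ctsl, a lysosomal protease (chromosome 13, 64359337 to 64370890, minus strand), had 318, 334 and 357 FPKM on day 3 and 170, 213 and 234 on day 1, without overlap (0.72 ± 0.04, adjusted p = 8.94e-06). Hexa, a subunit of beta-hexosaminidase, had 241, 255 and 271 FPKM on day 3 and 157, 176 and 194 on day 1 (0.53 ± 0.03, adjusted p = 7.79e-06). The sialidase Neu1 averaged 31.8 ± 2.0 FPKM on day 3 and 22.8 ± 2.2 on day 1, and the lysosomal membrane protein Lamp1 378 ± 11 on day 3 and 302 ± 18 on day 1. The autophagy receptor Sqstm1 (0.23) and the autophagosome genes Gabarapl1 (0.35) and Map1lc3b (0.19) rose. The autophagy initiators Ulk1 (0.00) and Becn1 (-0.14) and Tfeb, the master factor of lysosome genes (0.30), did not pass. Letters CACGTG, the E-box palindrome, were in 7 of 21 windows of tested genes against 8.09% of all symbols.

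Genes of the integrated stress response and amino acid supply rose too. This response lets the factor ATF4 switch on amino acid transporters and synthetases when amino acids run low or proteins misfold. Of 21 tested 14 were higher and 1 lower, with a median of 0.28. Nupr1, a stress-induced chromatin protein (chromosome 7, 126623249 to 126630861, minus strand), had 218, 225 and 240 FPKM on day 3 and 153, 163 and 175 on day 1, with no overlap (0.46 ± 0.03, adjusted p = 1.4e-05). Atf4 had 128, 131 and 136 FPKM on day 3 and 102, 108 and 117 on day 1 (0.28 ± 0.03, adjusted p = 0.000163), also without overlap. Ddit3, the stress factor CHOP, averaged 94.6 ± 4.2 FPKM on day 3 and 70.5 ± 8.7 on day 1. The amino acid transporter Slc7a5 averaged 44.3 ± 4.9 on day 3 and 32.4 ± 4.2 on day 1, and the asparagine synthetase Asns 60.3 ± 5.2 on day 3 and 45.8 ± 3.3 on day 1 (SD, n = 8 each). Psat1, an enzyme of serine synthesis, was the member that fell (-0.13, adjusted p = 0.0229), a count that was 0 without the pair of phase CT06, CT12 or CT18.

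The unfolded protein response, which raises chaperones of the endoplasmic reticulum, had 12 of 18 members higher and 1 lower, with a median of 0.19. Hspa5, the chaperone BiP, had 346, 367 and 386 FPKM on day 3 and 267, 309 and 331 on day 1 (0.27 ± 0.03, adjusted p = 0.0002). Dnajc3, a co-chaperone that also restrains the kinase PERK, had 37.8, 40.3 and 42.8 FPKM on day 3 and 28.1, 31.1 and 33.4 on day 1 (0.36 ± 0.02, adjusted p = 8.36e-06). Neither gene had overlapping days. Edem1, which directs misfolded proteins to degradation, was the member that fell (-0.18). The cytosolic chaperones of the heat shock list had 3 of 17 higher and 1 lower, with a median of 0.04, and without the pair of phase CT03 or CT12 only 1 was higher. These counts are near the shares over all genes tested (12.2% higher and 9.91% lower).

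The promoters of Hspa5 and Dnajc3 hold the endoplasmic reticulum stress element (ERSE), searched as CCAAT, any 9 bases and CCACG, and that of Nupr1 the amino acid response element (CARE), searched as TGATGNAA, each on both strands. Matches are in capitals in the same kind of window, and Nupr1 shows the reverse complement. The windows are chr2:34771840-34772139 (plus strand), chr14:118937682-118937981 (plus strand) and chr7:126625421-126625720 (minus strand).
Hspa5: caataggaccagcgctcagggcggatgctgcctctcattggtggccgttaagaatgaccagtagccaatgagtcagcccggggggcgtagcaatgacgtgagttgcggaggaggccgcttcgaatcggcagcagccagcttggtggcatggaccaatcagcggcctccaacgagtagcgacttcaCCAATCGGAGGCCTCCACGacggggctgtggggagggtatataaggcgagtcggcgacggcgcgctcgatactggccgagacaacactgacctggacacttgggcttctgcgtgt
Dnajc3: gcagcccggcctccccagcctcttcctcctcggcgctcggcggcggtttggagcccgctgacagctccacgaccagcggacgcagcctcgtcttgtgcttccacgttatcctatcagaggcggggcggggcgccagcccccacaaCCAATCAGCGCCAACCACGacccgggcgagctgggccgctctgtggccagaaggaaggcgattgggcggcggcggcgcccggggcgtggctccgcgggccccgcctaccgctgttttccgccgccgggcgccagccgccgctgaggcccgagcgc
Nupr1: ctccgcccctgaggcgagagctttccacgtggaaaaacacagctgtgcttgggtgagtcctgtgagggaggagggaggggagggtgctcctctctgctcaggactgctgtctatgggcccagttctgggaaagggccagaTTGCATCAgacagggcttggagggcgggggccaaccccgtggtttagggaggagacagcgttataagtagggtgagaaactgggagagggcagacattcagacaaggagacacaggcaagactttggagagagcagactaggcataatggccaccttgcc
The match begins 65, 105 and 110 bases before the start in these 3 genes. For Nupr1 the RefSeq start used here lies inside the gene span given above, so that span and RefSeq place its start differently. ERSE letters were in 7 of 16 windows of tested unfolded protein response genes, against 0.137% of all symbols. CARE letters were in 8 of 20 windows of tested stress response genes, against 4.51% of all symbols. Each window is marked only for the motif named with it.

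**Figure D2:**
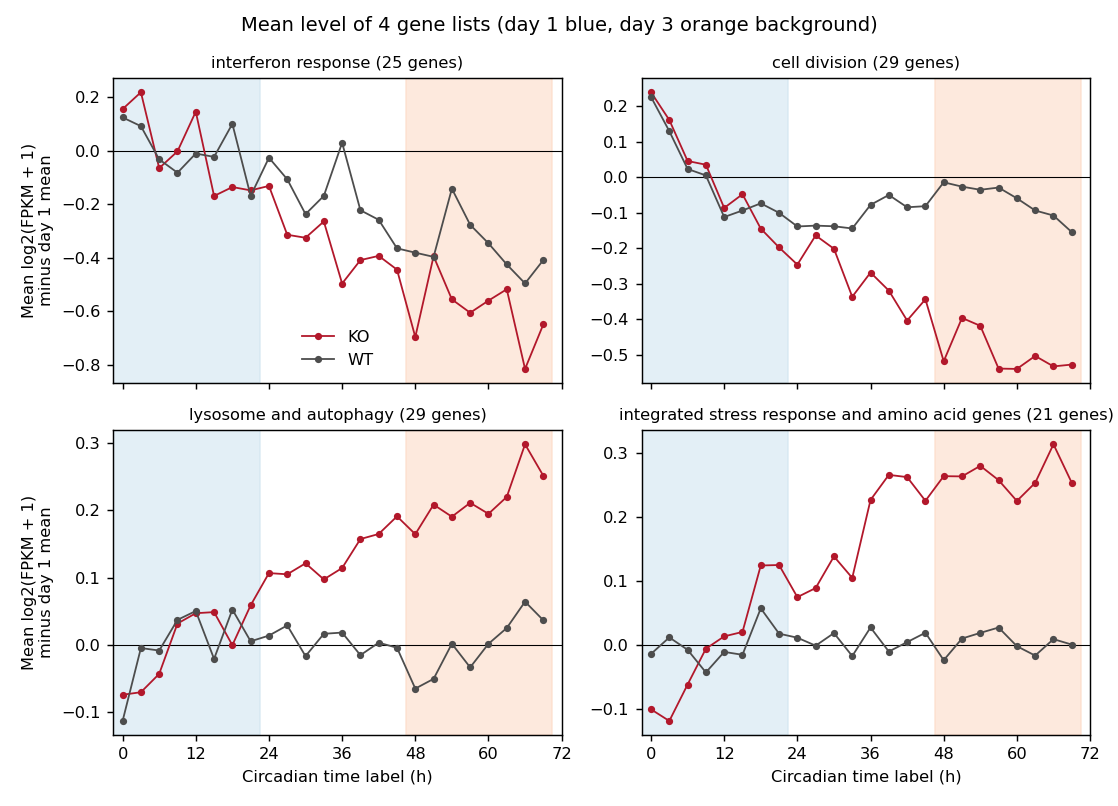
Mean log2(FPKM + 1) over the genes of 4 lists at each time point (circadian time label in h), minus the day 1 mean of the same genotype, in KO (red) and WT (grey). In KO cells the cell division mean on day 3 lies between -0.54 and -0.40 relative to its day 1 mean, and the lysosome mean between 0.16 and 0.30.

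Matrix genes rose in KO cells, with the proteases and crosslinkers that shape the matrix. Of 22 matricellular and other matrix genes 14 were higher and 3 lower, with a median of 0.28. Sparc, a collagen-binding protein, had 3017, 3210 and 3395 FPKM on day 3 and 2157, 2391 and 2552 on day 1 (0.46 ± 0.02, adjusted p = 3.55e-06). Mfap5, a microfibril protein, averaged 129 ± 8.7 FPKM on day 3 and 71.3 ± 11 on day 1, and the small proteoglycan Fmod 199 ± 19 on day 3 and 117 ± 13 on day 1 (SD, n = 8 each). Elastin (Eln) differed by 0.67 and the thrombospondin Thbs2 by 0.48. The lower genes included Tnc, a matrix protein of wounds and growing tissue, at 5.83, 6.402 and 7.61 FPKM on day 3 and 9.84, 11.3 and 13.7 on day 1 (-0.71 ± 0.03, adjusted p = 6.5e-06). The hyaluronan-binding proteoglycan Vcan was also lower, at 159 ± 15 FPKM on day 3 and 254 ± 22 on day 1. The third was Spp1, osteopontin (-0.36).

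Of 24 matrix proteases, inhibitors and crosslinkers 14 were higher and 2 lower, with a median of 0.22. Ctsk, the collagen-cutting cathepsin, had 76.2, 80.9 and 86.5 FPKM on day 3 and 41.6, 49.2 and 52.2 on day 1 (0.75 ± 0.03, adjusted p = 4.44e-06). Adamts5, which cuts proteoglycans, had 44.9, 50.3 and 59.0 FPKM on day 3 and 27.6, 31.8 and 34.2 on day 1 (0.66 ± 0.03, adjusted p = 5.82e-06). The gelatinase Mmp2 averaged 657 ± 16 FPKM on day 3 and 473 ± 38 on day 1, while its inhibitor Timp2 averaged 1004 ± 45 on day 3 and 752 ± 64 on day 1, so enzyme and inhibitor were both higher. The collagen crosslinker Lox averaged 1449 ± 114 FPKM on day 3 and 1017 ± 102 on day 1. Serpine2 (-0.51) and Loxl4 (-0.18) were the lower ones. Of 15 collagens tested 5 were higher and 2 lower, with a median of 0.08. Col5a1, which nucleates fibrils, averaged 319 ± 6.5 FPKM on day 3 and 265 ± 21 on day 1, and Col14a1 16.3 ± 0.88 on day 3 and 12.3 ± 0.97 on day 1.

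Complement genes and antigen presentation genes of 1 list parted. Of its 17 tested genes 6 were higher and 6 lower. The 6 higher ones are complement components or their regulators, among them C1ra, C1s1, C4b, Cfb and Serping1. C1ra, a protease of the classical pathway, had 63.1, 68.3 and 76.9 FPKM on day 3 and 35.5, 43.0 and 48.8 on day 1 (0.70 ± 0.04, adjusted p = 7.08e-06). The 6 lower ones serve antigen processing or are MHC class I genes, Psmb8, Psmb9, Tap1, Tapbp, H2-T23 and H2-Q4. The immunoproteasome subunit Psmb8 averaged 28.8 ± 2.5 FPKM on day 3 and 44.2 ± 4.2 on day 1 (-0.60 ± 0.05, adjusted p = 7.12e-05). This division by function was described after the values were seen. B2m, the light chain of MHC class I, differed by 0.02 and did not pass. C3, the central complement protein (chromosome 17, 57203970 to 57228136, minus strand), stands in the inflammatory list and had 1912, 2395 and 2739 FPKM on day 3 and 1032, 1290 and 1497 on day 1 (0.88 ± 0.03, adjusted p = 1.42e-06).

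The inflammatory list had 6 of 18 members higher and 5 lower, with a median of 0.03. The serum amyloid gene Saa3 averaged 91.0 ± 15 FPKM on day 3 and 52.0 ± 9.2 on day 1, and the macrophage growth factor Csf1 131 ± 8.9 on day 3 and 98.1 ± 7.9 on day 1 (SD, n = 8 each). Neutrophil chemokines were lower, with Cxcl5 at 9.26, 11 and 12.6 FPKM on day 3 and 16, 18 and 20.1 on day 1 (-0.67 ± 0.04) and Cxcl1 at -0.71. The monocyte chemokine Ccl2 was higher (0.30, adjusted p = 0.0112).

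Cholesterol genes were mostly lower. Of 21 tested 13 were lower and 2 higher, with a median of -0.19. The synthesis enzymes Fdps (-0.35) and Lss (-0.34) fell. Insig1, which retains the SREBP complex, rose (0.20). Of 14 fatty acid genes 5 were lower and 2 higher. The desaturase Scd2 had 107, 114 and 118 FPKM on day 3 and 135, 146 and 162 on day 1 (-0.38 ± 0.02, adjusted p = 1.05e-05), while Fasn (-0.04) did not pass. Lpl, which frees fatty acids from lipoproteins, had 71.7, 75.9 and 79.9 FPKM on day 3 and 51.3, 55.4 and 63.5 on day 1 (0.43 ± 0.03, adjusted p = 1.26e-05). Of 8 sterol efflux genes Apoe was higher and Abca9 (-0.21), Lpcat3 (-0.19) and Mylip (-0.16) were lower, with 1 lower without phase CT00, CT03 or CT06, and Abca1, the cholesterol pump, differed by 0.08 without passing.

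Glycolysis and hypoxia genes had 10 of 23 lower and 2 higher, with a median of -0.11. Ldha, which makes lactate, had 129, 137 and 148 FPKM on day 3 and 163, 173 and 197 on day 1 (-0.35 ± 0.03, adjusted p = 4.59e-05), and the enzymes Tpi1 (-0.40) and Eno1 (-0.34) were lower. The peptide hormone gene Adm went the other way, with 32.5, 35.8 and 50.3 FPKM on day 3 and 14.3, 18.3 and 27.4 on day 1 (0.97 ± 0.05, adjusted p = 8.28e-06). Metal genes had 5 of 13 higher and none lower. The ferritin heavy chain Fth1 had 2913, 3108 and 3343 FPKM on day 3 and 2281, 2394 and 2529 on day 1 (0.37 ± 0.02, adjusted p = 7.06e-06), and the light chain Ftl1 averaged 510 ± 24 on day 3 and 397 ± 24 on day 1. The metallothioneins Mt2 (0.48) and Mt1 (0.37) and the heme oxygenase Hmox1 (0.48) rose.

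Targets of the glucocorticoid receptor had 9 of 18 members higher and 3 lower, with a median of 0.13. Ddit4, a glucocorticoid-induced brake on mTOR, had 50.5, 52.6 and 54.5 FPKM on day 3 and 64.0, 70.3 and 77.2 on day 1, without overlap (-0.41 ± 0.02, adjusted p = 8.94e-06). Tsc22d3, the GILZ mediator, averaged 125 ± 8.3 FPKM on day 3 and 102 ± 6.3 on day 1, and Angptl4, an inhibitor of lipoprotein lipase, 83.2 ± 4.8 on day 3 and 54 ± 9.1 on day 1 (SD, n = 8 each). Fkbp5 (-0.12), Sgk1 (0.11) and Per1 (-0.00) did not pass, and Per1 stood at 28.4 FPKM on day 3 and 28.3 on day 1.

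Of 4 clock activators tested Clock and Npas2 were higher on day 3 with phase held equal and none was lower, and Arntl and its paralog Arntl2 (-0.23) did not pass. Clock had 8.71, 9.14 and 9.75 FPKM on day 3 and 6.95, 7.92 and 8.13 on day 1 (0.23 ± 0.03, adjusted p = 0.00112), without overlap. Npas2, the paralog of Clock, averaged 6.94 ± 1.1 on day 3 and 4.85 ± 0.50 on day 1, with overlap (0.43 ± 0.07, adjusted p = 0.00294). Of 14 repressors and outputs 6 were higher and none lower, with a median of 0.17. Cry1, which represses CLOCK and BMAL1, had 16.4, 18.4 and 19.8 FPKM on day 3 and 11.8, 13.3 and 14.7 on day 1 (0.44 ± 0.03, adjusted p = 4.02e-05). Bhlhe40, the DEC1 repressor, averaged 27.5 ± 3.7 on day 3 and 19.98 ± 2.6 on day 1. Per2 had the largest value of that list (0.54 ± 0.19) but did not pass (adjusted p = 0.0754). Without the pair of phase CT09 the count was 3.

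Lists of growth factor signalling held genes higher and genes lower on day 3. Over all genes tested 12.2% were higher and 9.91% lower. The 1 lower gene of the IGF axis and the 1 of the YAP and TEAD targets are near that share. Of 11 genes of the IGF axis 5 were higher and 1 lower. Igfbp6, a binding protein of IGF2, had 1224, 1297 and 1488 FPKM on day 3 and 591, 736 and 908 on day 1 (0.88 ± 0.05, adjusted p = 9.93e-06), and Igfbp3 28.5, 35.1 and 39.6 on day 3 and 12.5, 17.4 and 21.5 on day 1 (0.95 ± 0.06). Of 16 TGF-beta and BMP genes 4 were higher and 5 lower, with 3 lower without the pair of phase CT09, CT15 or CT18. The ligand Tgfb2 was lower, at 5.97, 8.51 and 10.3 FPKM on day 3 and 11, 11.5 and 14.8 on day 1, and Tgfbi, an induced adhesion protein, was higher (0.40). Of 10 Wnt genes 5 were higher and 2 lower. The ligand Wnt2 averaged 2.87 ± 0.39 FPKM on day 3 and 5.60 ± 0.66 on day 1, whereas Axin2, a feedback target of the pathway, was higher (0.60, adjusted p = 0.00804). Of 11 YAP and TEAD targets 4 were higher and 1 lower, with Amotl2 at 71.7, 92.5 and 119 FPKM on day 3 and 32, 50.4 and 67.6 on day 1 (0.92 ± 0.06, adjusted p = 3.12e-05). Gas6, the growth arrest ligand of the AXL receptor, had 700, 754 and 869 FPKM on day 3 and 448, 507 and 567 on day 1 (0.61 ± 0.03, adjusted p = 3.55e-06), and Gas1, a growth arrest gene, was higher as well (0.36).

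Both 24 h steps carried part of the change. Against day 1, day 2 had 873 genes higher (5.92%) and 612 lower (4.15%) of 14737, and day 3 against day 2 had 565 higher (3.83%) and 373 lower (2.53%). These comparisons share day 2 with each other and their outer days with the main one, so only their own values are set out. Apoe differed by 1.03 ± 0.07 in the first step and 0.87 ± 0.07 in the second, and Angpt2 by -0.86 and -0.71. Of the 25 interferon genes 21 were lower in the first step (median -0.43) and 13 in the second (-0.29). For the 29 cell division genes these counts were 11 (-0.32) and 7 (-0.19), and of the 29 lysosome genes 15 were higher in the first (0.13) and 12 in the second (0.09). The stress response genes had 11 of 21 higher in the first step (0.18) and 4 in the second (0.10), and the unfolded protein response genes 10 of 18 (0.14) and 1 (0.04). Whether the steps differ from each other was not tested.

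Values also moved within the days, described here without a test. The median slope of the cell division genes was -0.54 per 24 h within day 1, -0.14 within day 2 and -0.13 within day 3, and 26, 22 and 18 of 29 slopes were negative. For the interferon genes the median slopes were -0.47, -0.31 and -0.10 per 24 h in the same order. The 8 libraries of a day are therefore 8 times along a course and not repeats of 1 state.

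WT fibroblasts changed over the same days too. Of 14611 genes tested in WT 1766 were higher on day 3 (12.1%) and 2050 lower (14%). Among 13475 genes tested in both genotypes, 918 were called in the same direction, which is 29.8% of the 3079 KO calls and 26.0% of the 3535 WT calls. A further 452 were called in opposite directions. The changes in KO and WT had a Pearson r of 0.03 and a Spearman rho of 0.11 across genes, which are not independent replicates and share the libraries of their genotype. A test of the difference itself, the KO change minus the WT change, called 2071 of 15023 genes with the KO change above that of WT (13.8%) and 1545 below (10.3%).

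**Figure D3:**
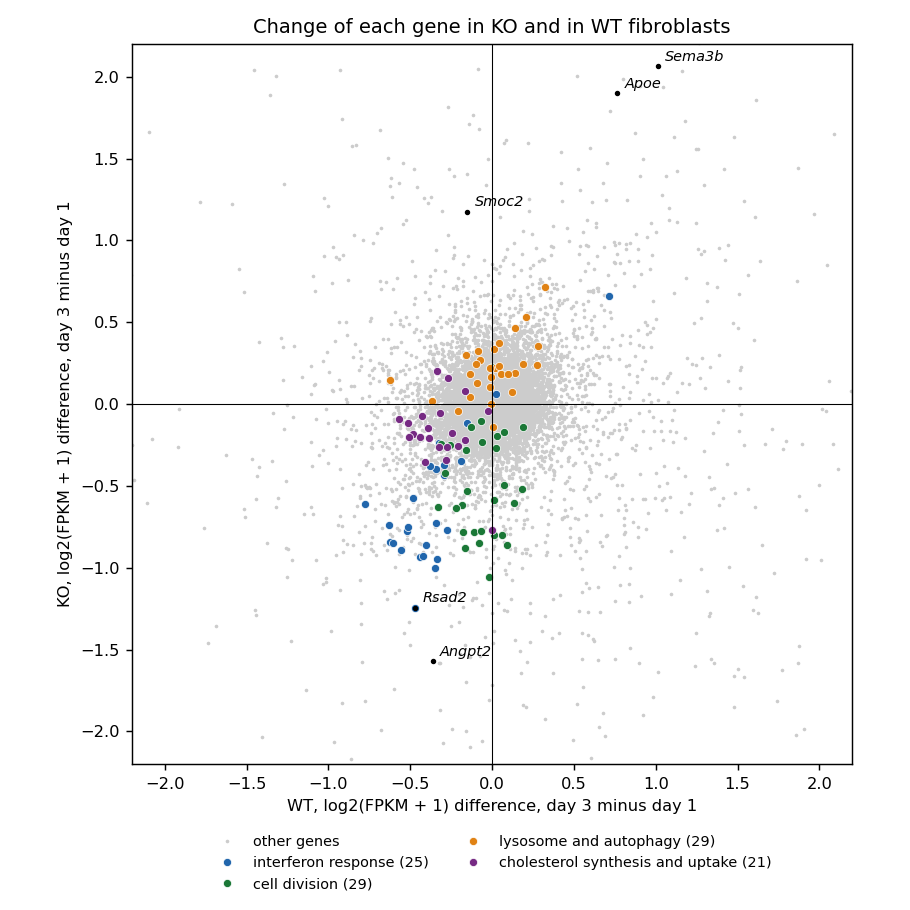
Day 3 minus day 1 difference of log2(FPKM + 1) of each of 13475 genes in KO (vertical) against WT (horizontal) fibroblasts, with 4 lists coloured and 91 genes outside the axes. Cell division genes lie mostly below 0 in KO and on both sides of 0 in WT, lysosome genes mostly above 0 in KO and on both sides of 0 in WT, and interferon genes mostly below 0 in both.

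In WT the cell division and lysosome lists had medians near that of all genes. The cell division list had 7 of 30 lower and 3 higher in WT (median -0.06), and the KO change was below the WT change for 16 of 30 and above it for 1. Birc5 averaged 30.1 FPKM on day 3 and 30.5 on day 1 in WT, and its KO change lay below its WT change by -1.04 (adjusted p = 1.61e-08). The lysosome list had 7 of 29 higher and 8 lower in WT (median 0.00), and the KO change was above the WT change for 19 of 29 and below it for none. Stress response genes had 3 of 23 higher and 4 lower in WT (median 0.02), with 16 of 23 differences above and 2 below. The unfolded protein response had 2 of 18 higher and 4 lower in WT (median -0.02), with 11 differences above and none below. Smoc2 rose in KO and fell in WT, where it averaged 67.5 FPKM on day 3 and 75.2 on day 1 (difference of changes 1.33, adjusted p = 1.42e-10).

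Most interferon genes fell in both genotypes. In WT 24 of 26 were lower and 1 higher (median -0.39), and the KO fall was deeper by test for 10 of 26, among them Isg15 (difference of changes -0.65, adjusted p = 0.00108), Rsad2 (-0.78, 0.0114) and Oasl2 (-0.50, 0.000138). Ifi27 rose in both, by 0.66 in KO and 0.72 in WT. Lipid synthesis genes were lower in WT. There 18 of 22 cholesterol genes and 13 of 14 fatty acid genes were lower (medians -0.32 and -0.37), and the KO change lay above the WT change for 11 of 22 and 12 of 14. Chemokines and inflammatory genes had 15 of 22 lower in WT and 2 higher (median -0.33), and 11 of 21 differences lay above 0 by test. Contractile genes had 3 of 10 higher and 4 lower in WT, with 5 of 10 differences below 0 and none above. Because genotype and sequencing pool coincide and the number of animals or cultures is not stated, what belongs to the loss of Bmal1 cannot be told apart from differences between these cells or pools.

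**Figure D4:**
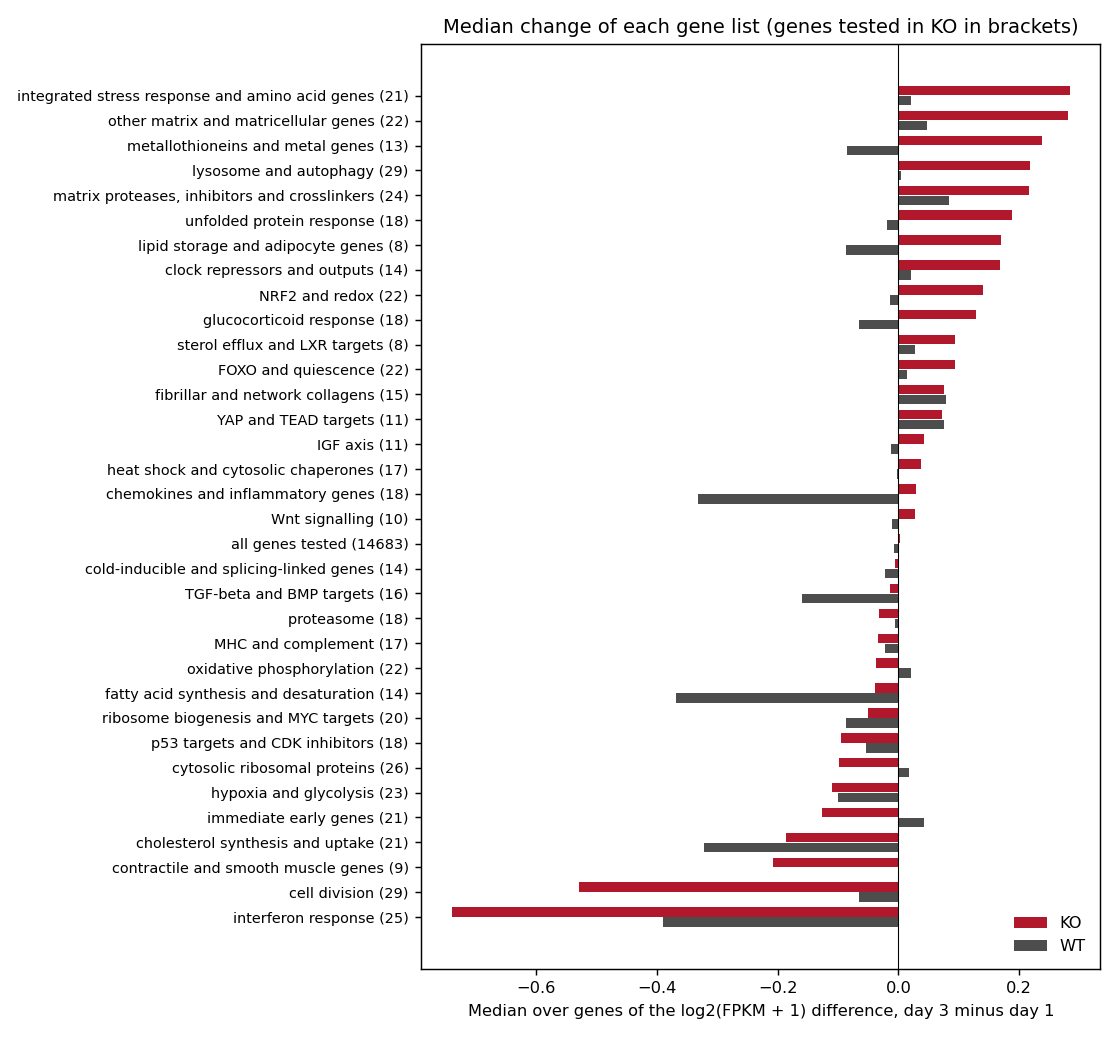
Median day 3 minus day 1 difference of log2(FPKM + 1) of each gene list with at least 8 genes tested, in KO (red, upper bar) and WT (grey, lower bar), ordered by the KO median. Lists of cell type markers are not drawn. Interferon response (-0.74 in KO, -0.39 in WT) and cell division (-0.53 in KO, -0.06 in WT) lie lowest in KO, and stress response and matrix lists highest (0.28 each in KO).

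Some genes went in opposite directions in the genotypes. Tspan18, a tetraspanin, rose in KO, where it had 11.4, 14.1 and 15.2 FPKM on day 3 and 5.22, 7.30 and 10.3 on day 1, and fell in WT, where it averaged 0.903 on day 3 and 2.67 on day 1 (difference of changes 1.82, adjusted p = 4.27e-08). Pla2g7, an enzyme that breaks down platelet-activating factor, averaged 0.872 FPKM on day 3 and 1.69 on day 1 in KO, and 18.6 on day 3 and 5.66 on day 1 in WT (-2.08, adjusted p = 6.53e-09). Fth1 rose by 0.37 in KO and differed by -0.30 in WT, and Klf2 by 0.53 in KO and -0.46 in WT, both by tests of the difference (adjusted p = 9.15e-11 and 1.47e-08). The other named extremes of this difference were rows of short RNAs. Mir707, Mir6415, Mir7075 and Mir6958 were listed at 0 in 3, 8, 7 and 11 of the 16 KO libraries, Mir7069 in 11 of 16 and Snord4a in all 16.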

How the data were processed

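RNA of mouse skin fibroblasts was sequenced as stranded poly(A) libraries with 50-base single reads. Per the submitters' processing notes, the authors used TopHat2 2.1.0, Cuffdiff and GRCm38, and deposited FPKM per gene; neither the annotation release nor the scaling between libraries is stated. Sequencing depth is unknown, and 3 runs per library share 1 column. The 96 columns of the authors' confidence bounds were not used. Genes were kept with a mean of at least 1 FPKM and a status of OK in all columns of a fit. log2(FPKM + 1) was fitted with limma 3.58.1 in R 4.3.3 with circadian phase as a block and a variance trend, and p-values were adjusted by Benjamini-Hochberg over all genes tested (threshold 0.05); the difference of changes was an interaction term. The method was tested on simulated data. Strand use in counting is not stated, so overlapping genes such as the neighbours Rsad2 and Cmpk2, and near-identical copies, are uncertain. Gene coordinates are on GRCm38.

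The members and gene lists were chosen with earlier results of these data known. Named genes were Arntl, the 15 highest and 15 lowest called genes that moved alike in 8 of 8 pairs and averaged at least 5 FPKM on the higher day, the 5 highest and 5 lowest differences of changes, and from each list the members with the smallest p, at most 4, of which 2 were carried through the alternatives; gene models named only by a number were passed over. Other list members were named after their values were seen. Alternatives were another pseudocount, other filters, no variance trend, array weights, rescaling, no phase block, a slope over 24 time points, a minimum size, and leaving out each phase. Some genes of the lists are not reported here, though they count in the totals.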

Additional observations from a re-analysis of the deposited data

Results flagged for a closer look

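Single libraries stood apart from the other 7 of their day in 9 cases among the genes named here, a gap test that chance meets in about 1 of 20 groups. Every named gene gave a group on each day, so chance alone can give this many cases. Mir667 was at 9.36 FPKM at CT60 on day 3 (others 34.4 to 58.8) and at 23.7 FPKM at CT03 on day 1 (others 0). Mir6415 was at 19.1 FPKM at CT60 on day 3 (others 0) and at 0 at CT18 on day 1 (others 16.1 to 134), and Mir6958 was at 97.6 FPKM at CT54 on day 3 (others 0). Hsp90ab1 was at 652 FPKM at CT66 on day 3 (others 734 to 780). On day 1 Pamr1 was at 1.26 FPKM at CT00 (others 2.88 to 4.61), Birc5 at 5.23 FPKM at CT18 (others 7.19 to 8.61) and Krt10 at 0.485 FPKM at CT15 (others 0.912 to 1.22).

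The interaction test in limma covered 109 of the genes carried through the alternatives. For 82 of them the day 3 minus day 1 change differed between KO and WT (adjusted p below 0.05). Of all 15023 genes tested 13.8% had the KO change above that of WT and 10.3% below. The named genes include the 5 highest and 5 lowest of this same difference and extremes of the KO change. Their choice therefore favours a high count. The values that follow are the KO change minus the WT change on the log2 scale. In WT, Gng13 averaged 0.122 FPKM on day 3 and 0.201 on day 1, Gsta3 0.0537 and 0.0344, and Cxcl15 0.00844 and 0.00285. Wnt2 was at most 0.107 FPKM in WT on these days. For these genes, near 0 in WT, the difference only repeats the KO change. The KO change lay furthest above the WT change for Tspan18 (1.82), Gng13 (1.79), Smoc2 (1.33), Apoe (1.13), Tnnt2 (1.10), Gsta3 (1.09), Sema3b (1.05), Klf2 (0.99), Ctsk (0.93) and Dpep1 (0.82). Next in size came Cebpa (0.76), Sult1a1 (0.69), Fth1 (0.67), Lpl (0.65), Tek (0.63), Fxyd1 (0.62), C3 (0.58), Tgfbi (0.57), Adamts5 (0.56), Igfbp6 (0.56), Npy1r (0.54), Sod2 (0.48) and Bhlhe40 (0.48). Smaller positive values belonged to Nupr1 (0.44), Gas6 (0.44), Cd14 (0.43), Cxcl5 (0.42), Clock (0.40), Ctsl (0.39), Ftl1 (0.38), Amotl2 (0.38), Gas1 (0.37), Sparc (0.37), Scd1 (0.36), Dnajc3 (0.33), Hexa (0.33) and Cryab (0.31). The remaining positive values were those of C1ra (0.30), Cry1 (0.26), Dkk3 (0.24), Dcn (0.23), Atf4 (0.23), Clk1 (0.21), Col5a1 (0.19), Hspa5 (0.18), Pdgfrb (0.16) and Scd2 (0.15). The KO change lay furthest below the WT change for Pla2g7 (-2.08), Cxcl15 (-1.35), Angpt2 (-1.21), Tes (-1.12), Ube2c (-1.07), Birc5 (-1.04), Rsad2 (-0.78), Wnt2 (-0.77), Mki67 (-0.77) and Ccl5 (-0.71). Further negative values belonged to Tgfb2 (-0.71), Isg15 (-0.65), Mx2 (-0.61), Acta2 (-0.54), Ifit3b (-0.52), Oasl2 (-0.50), Ifit1 (-0.49), Tnc (-0.42), Npm1 (-0.29), Ccng1 (-0.25), Spry2 (-0.24), Ldha (-0.22) and Hsp90ab1 (-0.22). The remaining negative values were those of Ddit4 (-0.19), Rplp0 (-0.17), Uqcrc1 (-0.16), Tpm1 (-0.12) and Rpl4 (-0.086). Rows of short RNAs listed at 0 in many libraries gave Mir667 (4.72), Mir707 (4.38), Snord4a (3.46), Mir6415 (-4.73), Mir7069 (-5.10), Mir7075 (-5.34) and Mir6958 (-5.50).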

How the results depend on the processing

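No named gene that passed the test changed sign under the alternatives run, but rescaling and a size limit each turned which direction held more calls in several comparisons. Requiring a log2 difference of at least 0.5 left 196 genes higher and 231 lower for KO day 3 against day 1, 326 above and 353 below for the KO change minus the WT change, 212 and 219 in WT, 42 and 47 for KO day 2 against day 1, and 32 and 16 for KO day 3 against day 2. Leaving out each phase in turn gave 1474 to 1644 higher and 1198 to 1306 lower in KO, 1750 to 1911 above and 1293 to 1420 below for the difference, 1448 to 1589 and 1711 to 1901 in WT, 661 to 776 and 443 to 528 for day 2 against day 1, and 438 to 473 and 273 to 313 for day 3 against day 2. The share of the 10 most abundant genes then differed by 0.371 to 0.759 percentage points, and that of the 50 most abundant genes by 1.02 (exact paired permutation test, p = 0.0078, the smallest that 8 pairs allow). Without the phase as a replicate block, KO day 3 against day 1 had 1965 genes higher and 1630 lower, the difference 2095 and 1597, WT 1855 and 2201, day 2 against day 1 791 and 569, and day 3 against day 2 413 and 315. Same-phase libraries of the days had correlated deviations of -0.040 to 0.145, so the phase does not pair the samples beyond its label. Rescaling by median-of-ratios factors gave 1612 higher and 1630 lower in KO, 1948 and 1808 in WT, and 1741 above and 1821 below for the difference. A slope over the 24 KO time points gave 2124 and 1765. Among named genes in KO, Mir7069 lost its call in 6 alternatives (adjusted p 0.0578 to 0.0694), and Mir707 gained one in 2. For the difference of changes 9 genes, among them Cry1, Amotl2, Col5a1, Sult1a1 and Uqcrc1, lost their call in at least 1 alternative, and Ccn1, Lgi2, Pamr1, Psmd12 and Zbp1 gained one. Small list counts moved by over 1.5 times when a phase was left out, among them the 2 higher p53 targets, the 2 lower collagens, proteases and Wnt genes, the 3 lower sterol efflux genes and the 1 lower YAP target. Under the size limit of 0.5, 57 list counts moved by that much and 23 did not. No gene of the stress response list (highest 0.46) or the unfolded protein response (highest 0.36) rose by 0.5 in KO. The causes were not tested. Unknown depth and a single value per time point limit all genes near 1 FPKM.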

Other observations

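Of 26 cytosolic ribosomal protein genes 11 were lower on day 3 and 1 higher, with a median of -0.10, and leaving out phase CT09 or CT15 left 5 lower and leaving out phase CT00, CT06 or CT12 left 6. Rpl4 averaged 870 ± 24 FPKM on day 3 and 952 ± 34 on day 1 (-0.13 ± 0.01, adjusted p = 0.000364), and its KO change lay below its WT change by -0.086 (adjusted p = 0.00485). In WT 5 of 26 were higher and 2 lower, and 11 of 26 differences of changes lay below 0 with none above. Of 20 genes of ribosome biogenesis 4 were lower and none higher, among them Npm1, a nucleolar chaperone, at 171 ± 7.2 FPKM on day 3 and 209 ± 13 on day 1, with a median of -0.05 for the list, and 2 were lower without phase CT03, CT09 or CT21. Of 22 genes of oxidative phosphorylation 6 were lower and none higher, with a median of -0.04 and 3 lower without phase CT09, CT15 or CT21, and of 18 proteasome genes 5 were lower and 1 higher, with 3 lower without phase CT06, CT12 or CT15. Of all genes tested 9.91% were lower. The share of all FPKM from mitochondrially encoded genes averaged 9.96 ± 0.47% on day 3 and 8.74 ± 0.50% on day 1 (SD, n = 8 each), higher on day 3 in 8 of 8 phase pairs, and its part in these counts was not tested.

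The redox list had 9 of 22 genes higher and 4 lower, with a median of 0.14. Gpx1, the glutathione peroxidase of the cytosol, averaged 238 ± 17 FPKM on day 3 and 322 ± 21 on day 1, whereas Sod2, the superoxide dismutase of mitochondria, averaged 11.1 ± 0.49 on day 3 and 9.10 ± 0.43 on day 1 (SD, n = 8 each). Of 22 FOXO and quiescence genes 9 were higher and 4 lower, of 8 lipid storage genes 4 were higher and 1 lower, and of 14 cold-inducible and splicing-linked genes 4 were higher and 1 lower. Of all genes tested 12.2% were higher and 9.91% lower. The cold-inducible list had a median of -0.01, with 7 differences above 0 and 7 below. The long noncoding RNA Malat1 averaged 2472 ± 195 FPKM on day 3 and 2093 ± 173 on day 1, with overlap between the days.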
